A study of Mus musculus with 4 samples.

Results

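The genes that drive actin turnover were described in 4 mouse mammary tumor cell lines profiled by RNA-seq, with 1 library per line. The set held 10 genes given by name: the cytoplasmic actins Actb and Actg1, the filament severing proteins Cfl1, Cfl2 and Dstn, the profilins Pfn1 and Pfn2, the thymosins Tmsb4x and Tmsb10, and the transgelin Tagln2. All 10 were among the 21090 genes of the table, and all 10 were among the 10871 genes tested, which had a mean level of at least 1 over the 4 libraries. Levels are RPKM, the reads of a gene per kilobase of its length, scaled to the library's read total. For the 10 genes that length equalled an annotated coding length, as it did for 56.0% of the 10780 genes compared. Controls were the parental line and its vector control (n = 2). Knockouts were 1 line edited in exon 3 and 1 edited in exon 2 of S100a4 (n = 2), the gene of a small calcium-binding protein that binds myosin. Every group shared one background: the study derived its lines from a primary tumor, with metastasis to the lung, that arose in a mouse with an activated Pik3ca allele and a mutant Trp53 allele, under a Cre recombinase driven by the MMTV promoter. Knockout lines were made with a lentivirus carrying Cas9 and 1 guide RNA and were selected on puromycin. Whether a line was a single clone is not given in the sources used here. Cells are named 308 in the title of the exon 2 knockout and 307 in the other 3 titles, so that knockout differed from the others in its cell name as well as in its guide. Each library came from a different line, so the spread within a group is the spread between lines.

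Actin filaments grow at one end and are taken apart at the other, and the freed subunits are used again. Cofilins and the related protein destrin (the product of Dstn) sever and depolymerize old filaments, profilins exchange the nucleotide on actin monomers and deliver them to growing ends, and thymosins hold monomers in reserve. Cells that crawl, as tumor cells do in invasion, depend on this cycle, and Actb is also a common reference gene for RNA measurements.

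The totals behind the RPKM values lay between 22472024 reads in the exon 2 knockout and 31235456 in the parental line. S100a4 itself was at 3576 RPKM (parental) and 4741 (vector) in the controls, and at 1136 (exon 3) and 1105 (exon 2) in the knockouts. Its log2 change, knockouts minus controls on the log2(RPKM + 1) scale, was -1.88 (SE 0.311, limma adjusted p = 0.0731). The edited gene thus missed the threshold of the test used here for all genes. Of its coding stretches of 75 bases, 91.8% also lie in transcripts of the overlapping gene Gm42674. In every sentence with 4 values from here on, the parental line comes first, then the vector control, the exon 3 knockout and the exon 2 knockout. Of the defining markers, 9 of 9 mesenchymal genes passed the level filter, with Vim between 1362 and 2418 RPKM, against 2 of 9 epithelial genes (Krt8 and Krt18), 2 of 7 smooth muscle genes (Acta2 and Tagln), 1 of 6 leukocyte genes (Cd68) and 0 of 4 endothelial genes. Krt8 was at 69.0, 27.5, 78.9 and 54.8 RPKM and Krt18 at 60.2, 6.10, 27.3 and 19.1, whereas Epcam, Cdh1, Krt5 and Krt14 were each below 1 RPKM in their mean, so the lines held RNA of some epithelial keratins without these other epithelial markers. In bulk RNA, fewer cells of a type and less RNA per cell cannot be told apart.

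The actin turnover genes spanned levels from Actb and Pfn1, at 1074 RPKM or more in every line, to Actg1, at 13.2 RPKM or less in every line, and none of the 10 passed the test between the knockouts and the controls. Together they took 0.836% and 1.05% of the RPKM total in the controls, and 0.848% and 1.05% in the knockouts. The mean share was 0.944% ± 0.153 for controls (SD, n = 2) and 0.948% ± 0.141 for knockouts (SD, n = 2) (two-sided exact permutation test, p = 1, where the smallest p possible with 2 libraries against 2 is 0.333). Actb and Pfn1 made up between 56.1% and 64.3% of the set's summed RPKM in each library. Ordered by mean RPKM, the genes ran Actb, Pfn1, Cfl1, Tmsb4x, Dstn, Tagln2, Cfl2, Tmsb10, Pfn2 and Actg1. Of the 9 neighbouring pairs in that order, 2 had overlapping ranges over the 4 libraries, Actb with Pfn1 and Cfl1 with Tmsb4x, and the other 7 did not overlap.

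**Figure D1:**
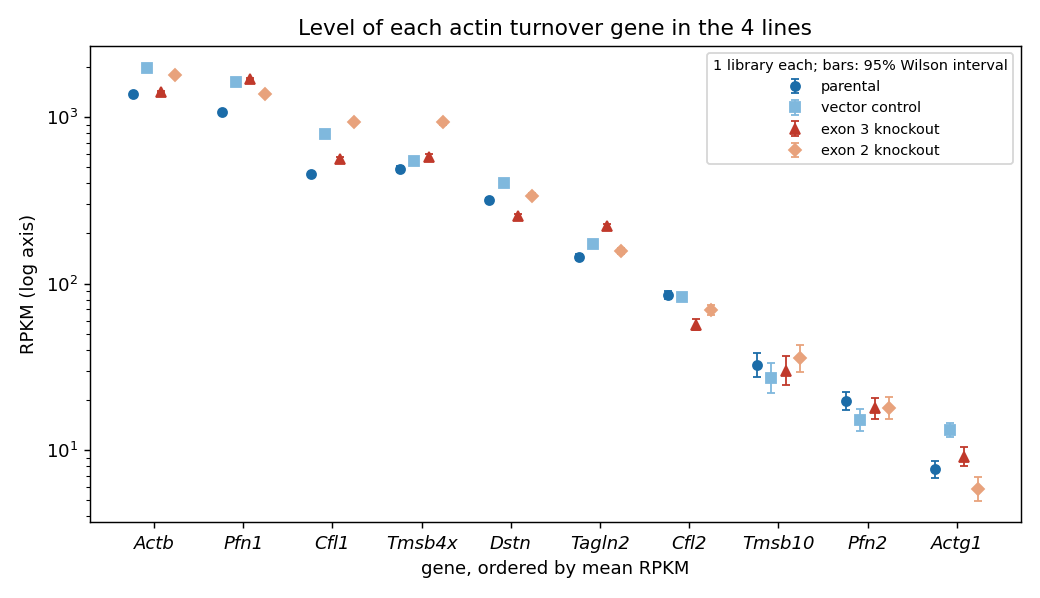
RPKM of the 10 genes in each of the 4 libraries on a log axis, ordered by mean level, with 95% Wilson intervals for counting error. The levels run from Actb, between 1376 and 1968 RPKM, down to Actg1, between 5.84 and 13.2 RPKM, and the order of the libraries differs from gene to gene.

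Actb (GRCm38 chr5:142903115-142906754, minus strand), which encodes β-actin, the main actin of most non-muscle cells, was the most abundant of the 10 by mean RPKM. Its level was 1376 and 1968 RPKM in the controls, and 1414 and 1788 in the knockouts. Both knockouts lay between the 2 controls. The change between groups, on the log2(RPKM + 1) scale and as knockouts minus controls, was -0.05 (SE 0.324, limma adjusted p = 0.953), while the vector control lay 0.52 above the parental line on the same scale. The counts behind these levels ran from 37445 to 56388 reads, so counting error was small beside the spread between lines.

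Actg1 (chr11:120345690-120348542, minus strand), which encodes γ-actin, the other cytoplasmic actin, was listed at a far lower level. It was at 7.66 RPKM in the parental line, with a 95% Wilson interval of 6.80 to 8.63, and at 13.2 for the vector line, with an interval of 11.9 to 14.6. The exon 3 knockout was at 9.14 RPKM and the exon 2 knockout at 5.84, with an interval of 4.97 to 6.86. The vector control was thus the highest and the exon 2 knockout the lowest, with the groups overlapping. The log2 change was -0.41 (SE 0.373, limma adjusted p = 0.559).

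The Actg1 level has to be read beside its sequence, since a read that matches several places in the genome may not have been counted, and the counting rule is not given in the sources used here. Of the 1054 stretches of 75 bases (the read length) in the Actg1 coding sequence, 1023 (97.1%) also occur in a transcript of another annotated gene, mostly processed pseudogenes, with Gm12715 sharing 898 of them. In Actb 48 of 1054 stretches (4.55%) do. The study sequenced paired reads of 75 bases, and this count takes 1 read at a time, without its mate. The ratio of Actb to Actg1 RPKM was 179.5 and 149 in the controls, and 155 and 306 in the knockouts. Both genes have a coding length of 1128 bases and differ at 128 of these (88.7% identity). The first 75 coding bases are shown because they hold 12 of the differences and show how far the pair can be told apart within 1 read. Capitals mark the bases that differ between the 2 genes.
Actb: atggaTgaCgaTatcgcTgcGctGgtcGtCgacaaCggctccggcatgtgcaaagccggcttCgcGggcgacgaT
Actg1: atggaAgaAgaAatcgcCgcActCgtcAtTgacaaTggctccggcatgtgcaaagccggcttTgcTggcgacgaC
The pair is thus separable from each other over this stretch, and 9 of the 10 genes that share stretches with Actg1 are pseudogenes, the other being the miRNA gene Gm23419, with 10 stretches. How much of the listed Actg1 level this sharing accounts for was not tested.

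Among the ADF/cofilin proteins, which bind and sever aged filaments, Cfl1 took a larger part of the family in both knockouts than in both controls. Cfl1 (chr19:5490455-5495201, plus strand) encodes the non-muscle cofilin. Controls were at 453 and 788 RPKM, and knockouts at 561 and 929. The parental line was lowest and the exon 2 knockout highest, and the groups overlapped. The change of 0.27 in log2 (SE 0.368, limma adjusted p = 0.705) stood beside a difference of 0.80 between the controls and 0.73 between the knockouts. Of its coding stretches of 75 bases, 22.7% also occur in other transcripts, chiefly the processed pseudogene Gm6180.

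Cfl2 (chr12:54858809-54862877, minus strand), the cofilin best known from muscle, was the only one of the 10 with both knockouts below both controls. Its level was 85.6 and 83.0 RPKM in the controls, against 56.7 and 69.2 in the knockouts. The controls lay close together here, and the groups did not overlap. The log2 change was -0.42 (SE 0.295, limma adjusted p = 0.444), so the difference did not pass the test. After a correction of each library for the GC content of coding sequences, which is 39.9% in Cfl2, the sign of the change turned, to 0.37. With coding length corrected as well, the change was 0.0137.

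Dstn (chr2:143915320-143943324, plus strand) encodes destrin, also called actin depolymerizing factor. The controls had 319.8 and 404 RPKM, the knockouts 254 and 338. The exon 3 knockout was the lowest, and the exon 2 knockout lay between the 2 controls. With -0.29 (SE 0.307, limma adjusted p = 0.616) the log2 change missed the threshold. It was 0.29 after the GC correction and -0.046 with coding length corrected as well.

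The makeup of the family was then compared per library, since a ratio within a library is free of its scaling. Cfl1 made up 52.8% and 61.8% of the summed RPKM of Cfl1, Cfl2 and Dstn in the controls, and 64.3% and 69.5% in the knockouts. The vector control lay closer to the exon 3 knockout than to the parental line. The Cfl1 to Cfl2 ratio was 5.29, 9.49, 9.88 and 13.4 in the 4 lines, with a difference of 0.69 in log2 between the group means. For Cfl1 to Dstn the ratio was 1.42, 1.95, 2.21 and 2.75, a difference of 0.57 in log2. Each difference had a two-sided exact permutation p of 0.333, the smallest that 2 against 2 allows, and over the 5 ratios of paralogs compared here the lowest Benjamini-Hochberg adjusted p was 0.833. With each library corrected for coding GC content and length, the differences were 0.20 and 0.26 (two-sided exact permutation p = 0.667 for each), so the knockouts no longer separated from the controls in either ratio. The summed RPKM of the family was 859 and 1275 in the controls, and 872 and 1337 in the knockouts, so a low and a high line stood in each group.

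**Figure D2:**
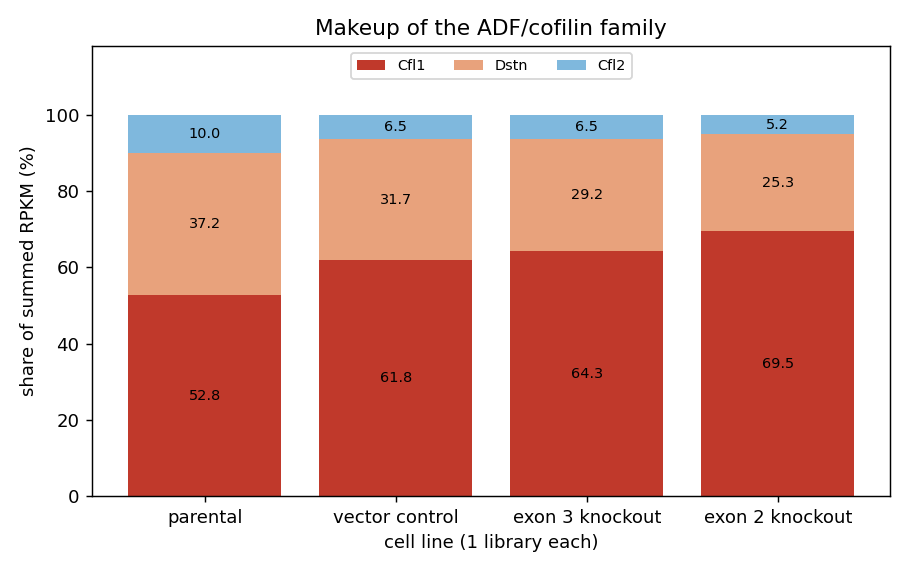
Share of the summed RPKM of Cfl1, Dstn and Cfl2 taken by each gene (%), 1 bar per library. The Cfl1 share is 52.8% and 61.8% in the controls and 64.3% and 69.5% in the knockouts, while the Dstn share is 37.2% and 31.7% against 29.2% and 25.3%.

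The profilins did not separate the groups. Pfn1 (chr11:70651850-70654644, minus strand), the profilin found in nearly all cells, was at 1074 and 1621 RPKM in the controls, and at 1699 and 1378 in the knockouts. The parental line stood lowest, and the other 3 lines lay closer to each other. A log2 change of 0.21 (SE 0.327, limma adjusted p = 0.742) was smaller than the 0.59 between the controls. Pfn2 (chr3:57841895-57848079, minus strand), the profilin best known from neurons, was at 19.8 and 15.2 RPKM in the controls, and at 17.8 and 17.9 in the knockouts. The 2 knockouts differed by less than counting error and lay between the controls, with a log2 change of 0.04 (SE 0.314, limma adjusted p = 0.960) on 163 to 261 reads. Pfn1 exceeded Pfn2 54.4-fold and 107-fold in the controls, and 95.3-fold and 77.1-fold in the knockouts, and the log2 ratio differed by 0.17 between groups (two-sided exact permutation p = 1).

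Of the thymosins, which bind actin monomers and keep them from polymerizing, Tmsb4x had the largest log2 change of the 10 genes. Tmsb4x (chrX:167207093-167209315, minus strand) was at 486 and 545 RPKM in the controls, and at 576 and 929 in the knockouts. Both knockouts lay above both controls, but the exon 3 knockout did so by 0.08 in log2 over the vector control, and the exon 2 knockout stood apart from the other 3 lines. The groups differed by 0.51 in log2 (SE 0.325, limma adjusted p = 0.408), and the difference between the knockouts was 0.69. The difference between groups was 1.29 after the correction for coding GC content, and 0.61 with coding length corrected as well. The adjusted p missed the threshold under either correction.

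Tmsb10 (chr6:72957347-72958748, minus strand) encodes thymosin β10, a close relative of the thymosin β4 made from Tmsb4x. Its 4 values were 32.5, 27.1, 29.98 and 35.6 RPKM. The groups overlapped, and so did the Wilson intervals of all 4 libraries, from 22.1 to 33.2 in the lowest (the vector control) and from 29.5 to 43.0 in the highest (the exon 2 knockout), on 93 to 137 reads per library. The log2 change was 0.13 (SE 0.305, limma adjusted p = 0.835). Tmsb4x exceeded Tmsb10 by a ratio of 14.96 and 20.1 in the controls, and 19.2 and 26.1 in the knockouts, a log2 difference of 0.37 between groups (two-sided exact permutation p = 0.667).

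The thymosin coding sequences are only 135 bases long, which leaves 61 stretches of 75 bases. In Tmsb10 41 of the 61 (67.2%) also occur in the processed pseudogene Gm3788, and in Tmsb4x 0 do. The 2 coding sequences are shown whole because reads can be assigned between them only where they differ, at 40 positions (70.4% identity). Capitals mark the bases that differ between the 2 genes.
Tmsb4x: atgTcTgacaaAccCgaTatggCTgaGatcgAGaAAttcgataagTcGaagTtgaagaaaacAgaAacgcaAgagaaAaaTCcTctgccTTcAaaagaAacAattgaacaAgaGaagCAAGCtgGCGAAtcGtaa
Tmsb10: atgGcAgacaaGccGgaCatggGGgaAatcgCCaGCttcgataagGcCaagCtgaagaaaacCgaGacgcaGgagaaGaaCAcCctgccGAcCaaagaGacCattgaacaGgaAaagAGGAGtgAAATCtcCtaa
The differences are spread along the whole sequence, so a read of 75 bases in either gene covers several of them. The part of the pseudogene in the listed Tmsb10 level was not tested.

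Tagln2 (chr1:172500047-172507380, plus strand), which encodes transgelin 2, a protein that binds filaments and is widely expressed, was at 145 and 172 RPKM in the controls, and at 222 and 156 in the knockouts. The exon 3 knockout stood highest, and the exon 2 knockout lay between the controls. The difference of 0.24 in log2 was below its SE of 0.309 (limma adjusted p = 0.693). None of its coding stretches of 75 bases occurs in another gene's transcript.

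Over the whole set, 0 of 10 genes passed the limma test at an adjusted p under 0.05, where 0.0184% of all tested genes did (2 of 10871). The edited gene S100a4 did not pass it either (limma adjusted p = 0.0731), so a missed threshold here does not show that a level was unchanged. An unadjusted p under 0.05 was found for 0 of 10, against 19.1% of all tested genes (2076 of 10871). Both knockouts lay above both controls for 1 of the 10 (Tmsb4x), against 21.9% of tested genes, and below both for 1 (Cfl2), against 31.2%. None of the 10 was at least 2-fold apart in all 4 pairs of a knockout and a control (2% of tested genes), nor at least 1.5-fold apart (9.7%). The log2 change was above 0 in 6 of the 10 and below 0 in 4, with a median of 0.09, against -0.08 over all tested genes. In 7 of the 10 the change was smaller than its SE. No share of all tested genes was computed for this count or for the signs, so neither can be called particular to the set. The median absolute change was 0.26 for the set and 0.40 for all tested genes, and the median ratio of the highest to the lowest library was 1.56 against 1.90.

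The 2 controls differed from each other by more than the groups did in 8 of the 10 genes, where 47.1% of tested genes show this. The vector control was higher than the parental line in 7 of the 10 (63.4% of tested genes), with a median difference of 0.29 in log2 against 0.16 over all tested genes. At least 1.5-fold separated the controls for Actg1, Cfl1 and Pfn1, each higher in the vector control, which is 3 of the 10 against 15.5% of tested genes in that direction and 26.8% in either. Between the knockouts, 7 of the 10 were higher in the exon 2 line (54.4% of tested genes), and Cfl1 and Tmsb4x were at least 1.5-fold apart on the log2(RPKM + 1) scale, 2 of the 10 against 22.8% of tested genes in either direction. Without the added 1, Actg1 also passed 1.5-fold, with a ratio of exon 2 to exon 3 RPKM of 0.639.

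**Figure D3:**
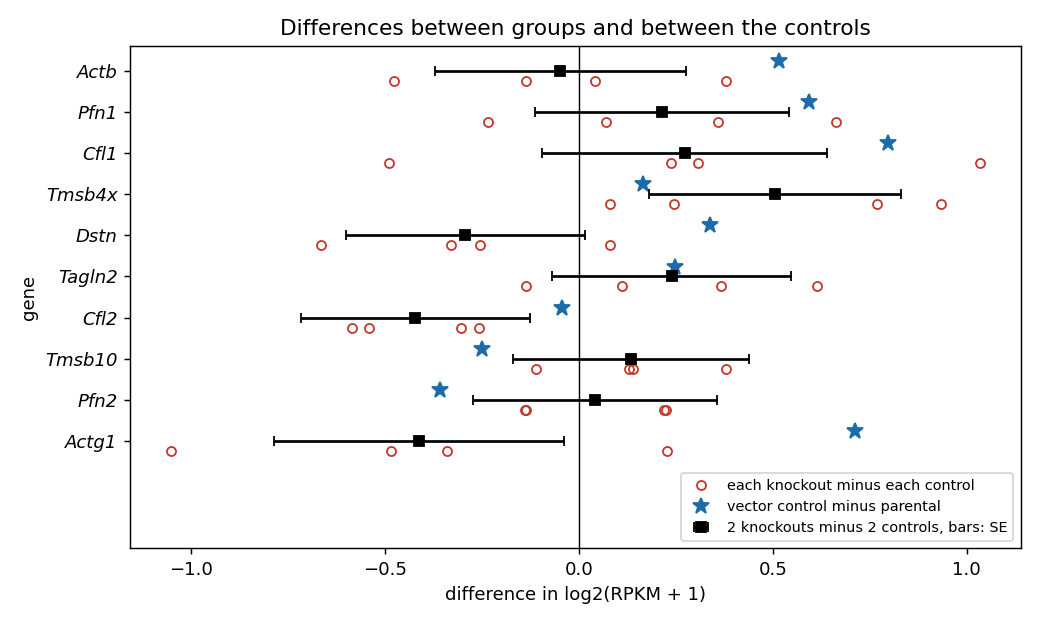
Differences in log2(RPKM + 1) for the 10 genes: squares with SE bars are knockouts minus controls (n = 2 each), open circles are each knockout minus each control, and stars are vector control minus parental. The circles lie on 1 side of 0 only for Tmsb4x and Cfl2, and the star lies farther from 0 than the square for 8 of the 10 genes.

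Since Actb serves as a reference gene, it was set beside 14 other genes commonly used as references. The ratio of its highest to its lowest library was 1.43, and 4 of the 14 had a smaller ratio. The 14 ranged from 1.17 for Sdha, a subunit of a mitochondrial enzyme, to 3.11 for Tfrc, the transferrin receptor, with a median of 1.51. Their log2 changes lay between -0.89 and 0.73, and 0 of the 14 passed the test. The 4 reference genes with at least 89% of their coding stretches shared (Gapdh, Ppia, Pgk1 and Ywhaz) lay between 2.93 and 23.1 RPKM, a range that holds the levels of Actg1 and also those of Pfn2, none of whose stretches is shared. The 9 with less than 15% shared lay between 12.5 and 5936 RPKM, and Rplp0, with 40% shared, between 724 and 1413. Gapdh, a glycolytic enzyme that most cells make in large amounts, was at 2.93 and 4.34 RPKM in the controls, and at 4.42 and 5.32 in the knockouts, with 94.0% of its stretches shared.

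**Figure D4:**
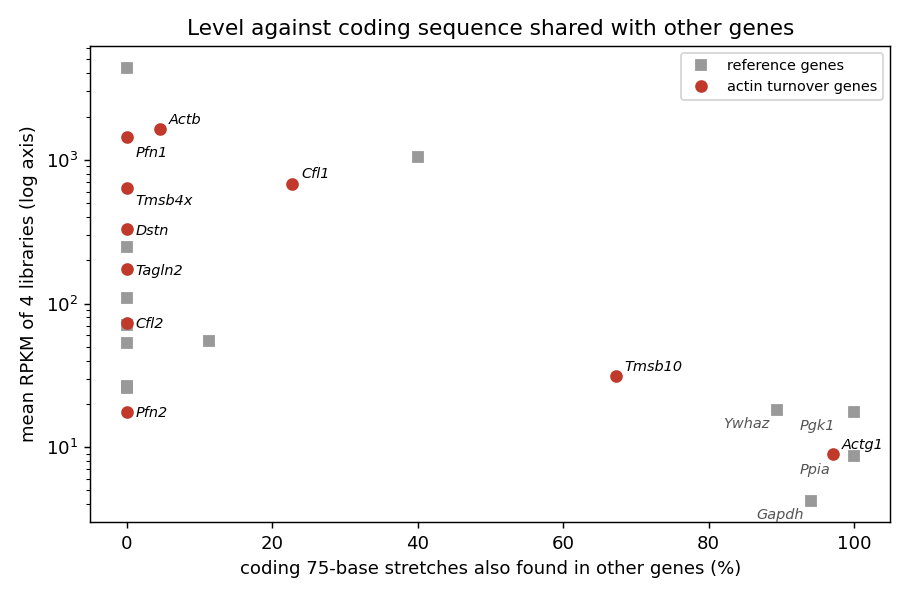
Mean RPKM over the 4 libraries (log axis) against the share of coding stretches of 75 bases that also occur in transcripts of other genes (%), for the 10 actin turnover genes (circles) and 14 reference genes (squares). Actg1, at 97.1% shared, sits beside Gapdh, Ppia, Pgk1 and Ywhaz at the low end of the level axis, and Actb, at 4.55% shared, sits at the high end.

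The rest of the actin machinery was followed in 8 lists of genes with known roles, 86 of them tested. None of the 86 passed the limma test at an adjusted p under 0.05, and 22 (25.6%) had an unadjusted p under 0.05, 5 higher and 17 lower in the knockouts, where 19.1% of all tested genes did. Both knockouts lay above both controls for 15 of the 86 (17.4%, against 21.9% of all tested genes) and below both for 32 (37.2%, against 31.2%). The median log2 change was -0.20, and 1 gene, Wipf1, was at least 2-fold apart in all 4 pairs.

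The list with the lowest median held the nucleation promoting factors, which switch on the branching Arp2/3 complex, together with proteins bound to them. Over 11 tested the median log2 change was -0.63, with both knockouts below both controls for 9 and above both for 1. The summed level of the list overlapped between groups, at 474 and 516 RPKM in the controls, and at 406 and 521 in the knockouts. Of the 9 mesenchymal markers tested, 7 had a log2 change below 0 and 2 above it, Fn1 at 0.25 and Cdh2 at 0.003. The median of the 9 was -0.54, and both knockouts lay below both controls for 5. Their summed level was 5195 and 3145 RPKM in the controls against 2844 and 2805 in the knockouts, with the parental line standing apart. For Col1a1 the vector control, at 6.93 RPKM, lay below the knockouts at 54.3 and 24.2. Among the markers, Col3a1, a collagen, had a log2 change of -2.14 (limma adjusted p = 0.0957), and Zeb2, a transcription factor, one of -1.21 (limma adjusted p = 0.138). The leukocyte list summed to 5.01 and 3.91 RPKM in the controls and 12.0 and 13.8 in the knockouts, nearly all of it Cd68, while Cd3e was at 0. The part of either list in these results was not tested. Wipf1, which binds and stabilizes the Wiskott-Aldrich syndrome protein family, was at 22.7 and 23.1 RPKM in the controls, and at 10.1 and 7.15 in the knockouts (log2 change -1.33, SE 0.323, limma adjusted p = 0.105). Abi1, a subunit of the WAVE complex, had a log2 change of -1.01 (limma adjusted p = 0.155), and its relative Abi2 one of -1.05 (limma adjusted p = 0.164). Formins, which nucleate unbranched filaments, had a median of -0.45 over 12 tested, with 6 below and 1 above. Diap3, the table's symbol for Diaph3, had a log2 change of -1.36, Fmn1 one of -0.99 and Daam1 one of -0.99.

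The 9 tested subunits of the Arp2/3 complex, which starts branches on existing filaments, were divided, with a median of 0.12, 2 above and 4 below. Arpc5 was at 49.99 and 76.2 RPKM in the controls, and at 34.9 and 32.3 in the knockouts. Its paralog Arpc5l went the other way, at 67.4 and 71.5 RPKM in the controls and 136 and 122 in the knockouts, so the groups did not overlap in either gene. The log2 changes were -0.86 for Arpc5 and 0.88 for Arpc5l (limma adjusted p = 0.194 and 0.165).

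The kinases and phosphatases that switch cofilin off and on, listed with kinases upstream of them, were also divided. Of 13 tested, 6 were above and 4 below, with a median of -0.11. The 6 above were Limk1, Limk2, Tesk1, Ssh1, Ssh3 and Pdxp, and the 4 below were Pak1, Pak2, Rock1 and Rock2. The cofilin phosphatases Pdxp and Ssh1 had log2 changes of 1.08 and 0.89, and Rock1, a kinase upstream of the LIM kinases that phosphorylate cofilin, had one of -1.18 (limma adjusted p = 0.156, 0.204 and 0.158). The LIM kinase genes Limk1 and Limk2 went up, with log2 changes of 0.63 and 0.54. The phosphatase gene Ssh3 had a log2 change of 0.44, and Ssh2 had one of -0.35 with its groups overlapping. The groups also overlapped for Tesk2 and Pak4. For the 19 tested severing, capping and recycling proteins the median was -0.06, with 0 above and 4 below, and Eps8, a capping protein, had a log2 change of -1.06. The 15 tested cross-linkers and membrane linkers had a median of -0.13, 4 above and 4 below. Ezr, which links filaments to the membrane, had a log2 change of 0.73 and Vcl, an adhesion protein, one of -0.66.

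The muscle-type genes varied more between the lines than any of the 10 turnover genes, without separating the groups. Acta2, smooth muscle α-actin, was at 55.2 and 420.1 RPKM in the controls, and at 178 and 252 in the knockouts. Tagln, the smooth muscle relative of Tagln2, was at 29.9, 115, 14.8 and 122 RPKM in the 4 lines, with 59.6% of its coding stretches shared. In both genes the vector control stood well above the parental line.

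**Figure D5:**
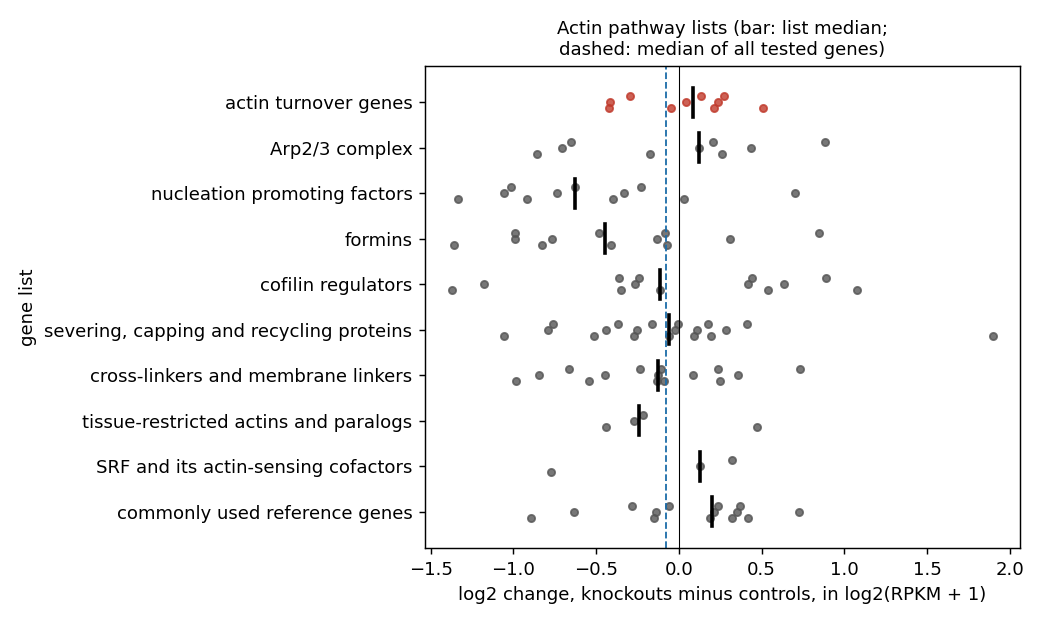
Log2 change of each tested gene, knockouts minus controls on the log2(RPKM + 1) scale, for the 10 actin turnover genes, the 8 actin pathway lists and the reference genes. Bars are list medians and the dashed line is the median of all tested genes (-0.08), and the turnover genes lie between -0.42 and 0.51 around a median of 0.09.

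Serum response factor (SRF), with cofactors that sense actin monomers, is known to drive actin genes through a site called the CArG box. Srf itself was at 36.3 and 37.2 RPKM in the controls, and at 38.4 and 42.1 in the knockouts (log2 change 0.13, limma adjusted p = 0.837). The cofactor gene Mkl2 was at 6.90 and 5.22 RPKM in the controls and 2.998 and 3.19 in the knockouts (log2 change -0.77, limma adjusted p = 0.255). The other tested cofactor, Mkl1, was more abundant, at 38.5 and 26.3 RPKM in the controls and 36.7 and 43.4 in the knockouts (log2 change 0.32, limma adjusted p = 0.599). Promoters of 9 of the 10 genes, 11 promoters in all, were matched in RefSeq (GRCm38.p6), each from 250 bases before to 50 bases after a start site, and Actb was not matched. A CArG box stood in 1 of these 11, that of Actg1, and in 1.63% of all 32851 promoters of that length. The motif TATAAA, searched on both strands, was in 0 of the 11 and in 13.6% of all. The Actg1 site lies at positions -90 to -81 from the RefSeq start site, which differs from the edge of the gene span given above. The sequence around the site, chr11:120348551-120348610 on the minus strand, is shown as the one match found, with the CArG box in capitals.
Actg1 promoter: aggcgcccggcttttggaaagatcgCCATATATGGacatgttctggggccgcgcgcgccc
A match is a description of the letters in this window only.

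The profiles most like those of the 2 genes with the largest absolute log2 change were found by the root mean square difference of centred log2(RPKM + 1) over the 4 libraries. For Tmsb4x these were Tnk2 (0.0160), Fstl1 (0.0207) and Ccdc71 (0.0270), and 48 tested genes lay within 0.1. For Cfl2 they were Srp72 (0.0262), H3f3a (0.0278) and Ginm1 (0.0287), and 239 tested genes lay within 0.1. With 4 libraries, many genes share such a profile.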

How the data were processed

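The authors deposited an RPKM table, with 1 column per line and no replicate columns; all 4 columns were matched to a library by its title, and 0 columns of values were left unmatched. Per the labels, a stranded total RNA kit was used, and the submitters' processing notes name CASAVA 1.8, GSNAP and GRCm38. The gene model and the counting rule behind the table are not given in the sources used here. Whole reads were recovered from the ratios between libraries: 100% of the 15405 genes above 0 gave whole numbers (tolerance 0.001), and all 10 actin turnover genes had a length equal to a coding length in GENCODE M21, as did 56.0% of the 10780 genes compared. The totals behind the RPKM values were 31235456 (parental line), 25396254 (vector control), 23474246 (exon 3 knockout) and 22472024 (exon 2 knockout). Wilson intervals (95%) cover counting error only.

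Genes with mean RPKM of at least 1 were tested on log2(RPKM + 1), which understates the change of low genes, with limma 3.58.1 (R 4.3.3, intensity trend, Benjamini-Hochberg adjusted p over all 10871 genes, threshold 0.05), 2 knockouts against 2 controls, without covariates. The script was tested on simulated data, which checks the code and not the power of the test on these lines. The limma SE and p-value of a gene rest on the spread between these lines, but not on that gene's own spread alone. Limma moderates the variance of each gene toward the intensity trend over all tested genes. Ratios and shares were tested by exact permutation, two-sided. Shared sequence was counted as coding stretches of 75 bases present in another gene's GENCODE M21 transcript. Python 3.11.15, numpy 2.4.6, pandas 2.3.3 and scipy 1.17.1 were used. The members and lists were chosen with earlier results of these data known. Named beyond the 10 genes were S100a4, marker genes and the reference genes that a sentence on shared sequence or range turns on. At most 3 genes of each pathway list were named, ranked by their smallest change over the 4 knockout and control pairs. Acta2, Tagln, Mkl1 and the cofilin regulators other than Pdxp, Ssh1 and Rock1 were added after their values were seen. Alternatives were a pseudocount of 0.1, other scalings and filters, limma with no trend or with a robust prior, GC and length corrections (loess span 0.5), voom on recovered reads and leaving out each library.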

Additional observations from a re-analysis of the deposited data

How the results depend on the processing

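None of the 10 genes passed the test under any of the 14 alternatives (lowest adjusted p 0.243), and 127 of 140 values kept their sign. Only Actg1 and Tmsb4x kept it in all, Tmsb4x with 0.16 to 1.29 and Actg1 with -0.77 (without the parental line) to -0.057 (without the vector control). The sign turned for Actb with median ratio scaling (0.044), for Cfl2 (0.37) and Dstn (0.29) with the GC correction, and for Cfl2 (0.0137), Pfn2 (-0.031) and Tmsb10 (-0.069) with the GC and length correction; the cause was not tested. The same correction gave log2 ratio differences of 0.20 for Cfl1 to Cfl2, 0.26 for Cfl1 to Dstn and 0.68 for Tmsb4x to Tmsb10. With 1 library left out, where the lone sample of a group is assumed to vary like the other group, the log2 change ran from -0.31 to 0.21 for Actb, -0.13 to 0.67 for Cfl1, -0.083 to 0.51 for Pfn1, -0.14 to 0.22 for Pfn2 and -0.013 to 0.49 for Tagln2. Without the parental line the set's median was -0.104, the lowest of the 4, and without the vector control it was 0.108, the highest. Of the 10, the number with both knockouts above both controls (1) became 2 with median ratio scaling, 0 with quantile normalization, 4 with the GC correction and 3 to 5 with 1 library left out, and the number below (1) became 2 with quantile normalization, 0 with either correction and 2 to 4 with 1 library left out. Leaving out 1 library leaves 1 line in a group, where fewer pairs have to go the same way for the groups to separate. The matching shares of all tested genes were not computed, so these counts cannot be called particular to the set. All tested genes gave 0 higher and 2 lower calls. The lower calls became 1 with a pseudocount of 0.1 or quantile normalization and 0 with median ratio scaling, no filter, either correction or voom. Testing only genes with mean RPKM of 5 or more gave 7 higher and 25 lower, and a robust prior 43 and 242. With 1 library left out there were 1 to 238 higher and 1 to 550 lower calls, the most without the parental line and then without the vector control (116 and 335). Genes with an unadjusted p under 0.05 numbered 866 to 2367 over all alternatives. The median of all tested genes moved from -0.08 to 0.04 with quantile normalization, 0.04 with the GC correction and 0.06 with the GC and length correction. No paired analysis was possible because the replicate numbers follow the order of deposition and pair nothing. With 1 line per library and 2 per group, a difference of the size seen between the controls cannot be told apart from one between groups.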
